A study of Mus musculus with 4 samples.

Results

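The hair lineage transcription factors were 10 genes taken by name, Hoxc13, Foxn1, Msx1, Msx2, Dlx3, Gata3, Cux1, Ovol1, Foxq1 and Prdm1, and all 10 were found among the 32286 genes counted in mouse dorsal skin by spatial transcriptomics on 10x Visium slides. In this assay a tissue section lies on an array of barcoded spots, and each transcript is counted as a unique molecular identifier (UMI) at the spot that captured it. The 4 slices each held sections of 10 μm cut from frozen skin of the same 3 mice, so the slices are technical replicates. Errors and p-values given here measure the spread between slices, not between mice. The exceptions are p-values said to be between strips, which compare skin strips summed over slices. The study set aside a section for its distorted structure. That section was not told apart here, and all sections were used. All mice were Krox20-CreERT; R26-tdTomato and had received 40 μg of 4-hydroxytamoxifen on postnatal day 2, and skin was taken on day 38. The Cre is driven from the Krox20 (Egr2) locus, so the red label marks descendants of cells that used that gene. There was no group without the alleles or the drug, and comparisons were made between regions of the same skin.

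The hair shaft is built by matrix cells that divide around the dermal papilla in the bulb, leave the cell cycle as they move up, and fill with keratins. The outer layers of this column become the inner root sheath and the centre becomes the shaft, where hair keratins appear first and the keratin-associated proteins that bind them appear later. Each of these transcription factors is known from mutant mice or tissue staining to act somewhere in this column. Msx1, Msx2, Dlx3 and Hoxc13 are homeodomain proteins of the bulb and shaft, and Cux1 is a homeodomain protein with Cut repeats. Foxn1 is the forkhead factor lost in nude mice, and Foxq1 is the forkhead factor lost in satin mice, whose hair has an abnormal medulla. Gata3 is a zinc finger factor needed for the inner root sheath and the epidermal barrier. Ovol1 is a zinc finger factor of differentiating epithelium, and Prdm1, also called Blimp1, is a repressor of terminally differentiating keratinocytes.

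The slices held 1462 to 1752 spots each, with 19393026 to 26910422 UMIs per slice and a median of 11662 to 14627 UMIs per spot. After removal of 9 spots with fewer than 250 genes, 6411 spots were scored for 10 marker lists that contained neither a transcription factor of the set nor a hair keratin. A spot joined the region of its highest score if it lay in the top 10% of its slice for that list. The proliferating matrix, named from cell division genes such as Mki67 and Top2a, had 536 spots. The inner root sheath, named from Krt25, Krt71, Tchh and their kin, had 312. The early shaft, named from genes such as Dsg4, Gprc5d and S100a3, had 425. The late shaft, named from a list of 22 keratin-associated protein genes, of which 19 were detected widely enough to be scored, had 552, and the epidermis, named from Krt1, Krt10, Lor and similar genes, had 565. A spot is wider than a follicle layer and holds several cells, so each region is a mixture led by its markers.

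The markers were highest in their own region for 12 of 12 matrix genes, 6 of 8 inner root sheath genes (Krt26 and Krt72 were not), 8 of 9 early shaft genes, 19 of 22 late shaft genes and 11 of 11 epidermis genes. The regions were picked by these same lists, so high counts were largely fixed in advance and are no independent check. The inner root sheath and early shaft scores correlated across spots with r = 0.81 (6411 spots that share libraries and depth), so these regions were the least well separated. In each slice the regions lay as bands in the order muscle, matrix, inner root sheath with early shaft, late shaft and epidermis, as the map of the regions shows. The median distance from the nearest epidermis spot was 6.04 ± 0.048 spot spacings (SD, n = 4 slices) for the matrix, 4.58 ± 0.30 for the inner root sheath, 4.53 ± 0.11 for the early shaft and 3.46 for the late shaft. Depth differed between regions, with medians of 23301.5 UMIs per spot in the matrix, 16117.5 in the inner root sheath, 14377 in the early shaft, 11751.5 in the late shaft and 8465 in the epidermis. A further 328 spots that joined no region were in the top 10% for melanocyte genes such as Pmel and Dct. These melanocyte-marked spots lay at 5.56 ± 0.37 spacings, and they were set apart as a group after the data had been seen, so their levels are given with no test. Slice 1 stood apart in part of the late shaft, where a graph cluster of 282 spots came to 95.0% from this slice. Without slice 1 the 10 factors lost no call described below other than that of Ovol1 in the epidermis. Each slice held 3 skin strips, and Xist gave 84.5% to 92.6% of the sex-linked UMIs in the third and 7.01% to 14.1% in the others, so tests were also run with strips in place of slices.

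**Figure D1:**
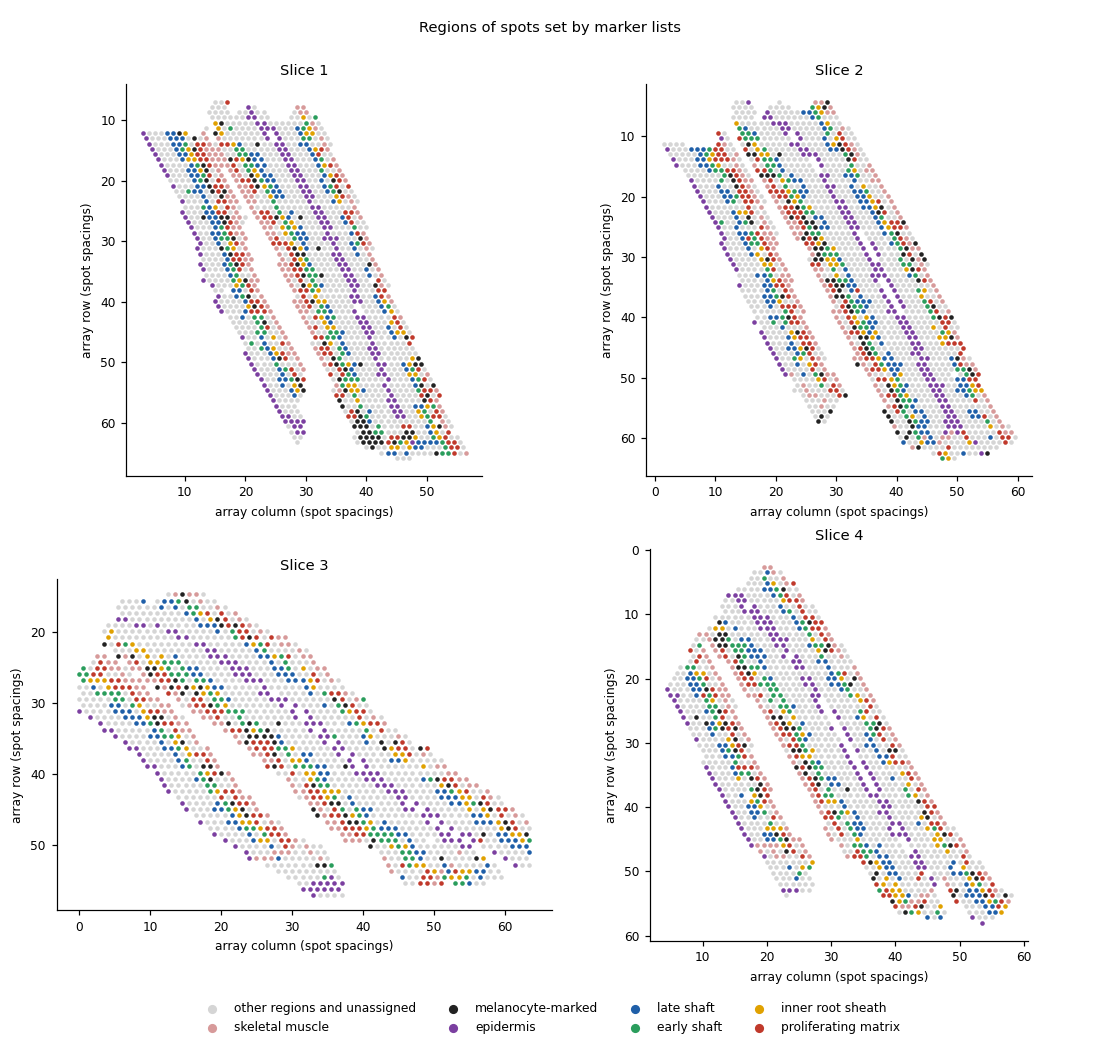
Spots of the 4 slices at their array positions (both axes in spot spacings), coloured by region. The bands run from epidermis (purple) through late shaft (blue), early shaft (green) and inner root sheath (yellow) to matrix (red) and muscle (pink), and skin strips lie side by side within each slice.

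The hair keratins, against which the transcription factors are set below, have start site sequences in RefSeq (build GRCm38.p6) for 9 of the 15 keratins found in the files. These are shown for 4 keratins at different places in the order described below. Krt32 and Krt31 lay near the middle of the axis from matrix to late shaft, and Krt34 and Krt84 lay later on it. Each sequence has its own line. Each line gives the 250 bases before the start site of the gene, all on the minus strand, written 5′ to 3′, with TTTATG and its reverse complement CATAAA in capitals. The windows are chr11:100088270-100088519 (Krt32), chr11:100050552-100050801 (Krt31), chr11:100041555-100041804 (Krt34) and chr15:101532821-101533070 (Krt84). TTTAT is the core of the site that Hoxc13 protein is known to prefer, and the last letter was added after the sequences had been seen.
Krt32: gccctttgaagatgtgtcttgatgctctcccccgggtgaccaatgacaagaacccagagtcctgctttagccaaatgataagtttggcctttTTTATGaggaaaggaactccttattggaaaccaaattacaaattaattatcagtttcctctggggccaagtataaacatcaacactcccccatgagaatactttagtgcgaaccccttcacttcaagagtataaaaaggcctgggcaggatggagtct
Krt31: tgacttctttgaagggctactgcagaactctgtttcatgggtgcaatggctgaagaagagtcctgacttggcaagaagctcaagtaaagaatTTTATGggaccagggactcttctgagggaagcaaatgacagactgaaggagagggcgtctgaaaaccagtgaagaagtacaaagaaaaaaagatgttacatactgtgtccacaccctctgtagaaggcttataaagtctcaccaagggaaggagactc
Krt34: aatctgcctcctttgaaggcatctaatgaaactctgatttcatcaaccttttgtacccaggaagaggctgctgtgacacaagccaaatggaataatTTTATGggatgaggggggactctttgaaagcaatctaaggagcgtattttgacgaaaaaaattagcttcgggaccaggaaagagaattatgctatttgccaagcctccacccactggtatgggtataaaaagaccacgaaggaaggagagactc
Krt84: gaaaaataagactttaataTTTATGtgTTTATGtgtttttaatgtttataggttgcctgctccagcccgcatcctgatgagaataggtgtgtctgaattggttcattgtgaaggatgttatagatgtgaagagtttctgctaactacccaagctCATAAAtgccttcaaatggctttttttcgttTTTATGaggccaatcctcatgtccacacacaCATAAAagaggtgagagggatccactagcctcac

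TTTATG on either strand was found in 8 of the 9 keratin windows, Krt36 being without it, and in 10.8% of the 32851 windows of this length in the table. In Krt31 and Krt32 it began 158 bases before the start, in Krt33b 159 and in Krt34 154. Krt84 held 5 matches, none of them overlapping the letters TATAAA of a TATA box. The last of these, CATAAA, began 34 bases before the start. Whether it serves as a TATA box was not tested. The plain core TTTAT stood in 8 of 9 keratin windows and in 37.3% of all windows. ACGC, the core of the Foxn1 site, stood in 4 of 9 keratin windows (Krt31, Krt34, Krt40 and Krt82) against 49.8% of all windows. Both strands were searched for every motif. The letters TAATTG, a core site of Msx and Dlx homeodomains, were in none of the 9 keratin windows and in 7.17% of all windows. The same held for a site of Gata proteins, AGATAA, which 9.99% of all windows contain. No keratin window held the Ovol1 core CCGTTA, found in 2.18% of all windows. None held the Cux1 site ATCGAT either, found in 0.728%. Of the transcription factors, 6 had an entry (Foxn1, Msx1, Msx2, Gata3, Cux1 and Prdm1), and none of these held TTTATG. Several of these keratins are neighbouring relatives (Krt31, Krt32, Krt33b and Krt34 among them), so their windows are not independent. Letters in a window do not show that a protein binds there, and binding was not measured.

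For each region of each slice the UMIs of all its spots were added up, and edgeR's quasi-likelihood test compared the 20 sums in a single fit, with adjustment over 11043 genes. The genes lie, in build GRCm38, at Msx1 (chr5:37820485-37824583), Cux1 (chr5:136248135-136567490), Msx2 (chr13:53466884-53473074), Dlx3 (chr11:95120119-95125296), Gata3 (chr2:9857078-9890034), Foxn1 (chr11:78357577-78386558), Hoxc13 (chr15:102921103-102928814), Ovol1 (chr19:5549136-5560646), Foxq1 (chr13:31556134-31560976) and Prdm1 (chr10:44437177-44528501). All 10 transcription factors passed the filter on low counts, with 2473 (Msx1) to 23408 (Cux1) UMIs over all spots. CPM here means UMIs scaled to the same total in every sum, and fold changes come from the fit. The fit scales libraries by TMM, so a fold can differ from the ratio of the CPM; hair proteins took 13.4% ± 2.1 of the UMIs of the early shaft and 2.43% ± 0.23 of those of the matrix. With library size alone as the scale, the median log2 fold change of all genes from matrix to early shaft moved from -0.046 to -0.31, and 5 transcription factors were higher there and 2 lower.

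From matrix to early shaft 7 transcription factors were higher and 2 lower, where 60.0% of all genes tested were called, 29.8% higher and 30.2% lower. From early to late shaft none was higher and 9 were lower, against 14.5% and 15.1% of all genes (29.5% in all). With every spot thinned to 5500 UMIs only 5 of these 9 calls held, and those of Msx1 (log2 -1.09 when thinned), Gata3 (-0.48), Hoxc13 (-0.26) and Prdm1 (-0.094) were lost. The inner root sheath was higher than the matrix for 6 and lower for 2 (27.0% and 26.7% of all genes, 53.7% in all), and lower than the early shaft for 5 with none higher (5.23% and 0.887%, 6.11% in all). The epidermis was higher than the matrix for 3 and lower for 5 (33.8% and 34.6%, 68.4% in all). The median log2 fold change of the 10 was 0.66 from matrix to early shaft and -0.69 from early to late shaft, where the medians of all genes tested were -0.046 and -0.0088. In a mixture of cells, fewer cells of a type and less RNA in each cell cannot be told apart. Outer root sheath RNA also differed between these regions, with 2078 CPM summed over 7 of 7 markers in the matrix (1894 to 2466), 5981 in the inner root sheath and in the early shaft, and 11232 in the late shaft (9923 to 12481), and its part in the results was not tested. Melanocyte RNA, summed over 7 of 7 markers, was at 597 CPM in the matrix (464 to 695), 544 in the early shaft (468 to 586) and 186 in the late shaft (149 to 235), and its part was not tested either.

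**Figure D2:**
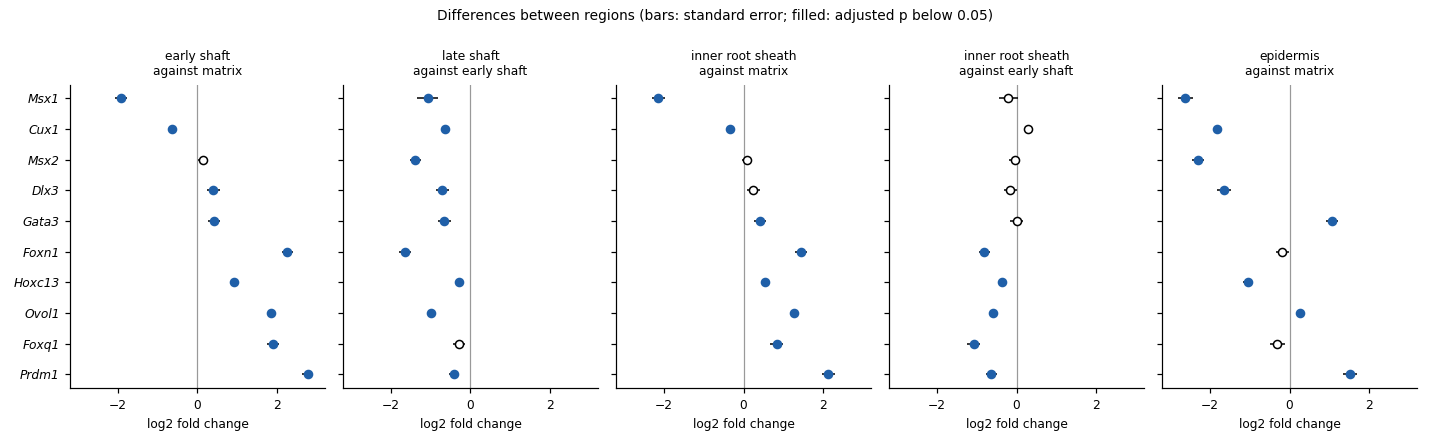
Log2 fold change of each transcription factor in the 5 comparisons of regions (x axis), with genes in the order of the matrix-to-shaft axis from top to bottom and bars for the standard error of the edgeR fit. Filled points passed an adjusted p of 0.05: early shaft against matrix runs from Msx1 at -1.93 to Prdm1 at 2.77, and no point of late against early shaft lies above 0.

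Msx1 and Cux1 were the factors of the matrix. Msx1 stood at 62.0, 65.3, 64.4 and 76.0 CPM in the matrix of slices 1 to 4 and at 12.2, 16.02, 12.4 and 18.0 in the early shaft. All 4 matrix values lay above every early shaft value, and the matrix was 3.80-fold higher (log2 fold change of early shaft over matrix -1.93 ± 0.16 SE, adjusted p = 5.3e-12). Msx1 was also lower in the inner root sheath than in the matrix (log2 -2.14 ± 0.17, adjusted p = 5.0e-12) and lower in the late than in the early shaft (log2 -1.08 ± 0.26, adjusted p = 0.0017), the latter on only 46 late shaft UMIs and lost without slice 2 (adjusted p = 0.0653). The matrix spots carried more dermal papilla marker RNA than the early shaft, with 81.6 CPM summed over 7 of 7 markers (range 56.3 to 101) against 22.5 (19.3 to 26.2). The part of these cells in the level of Msx1 was not tested. In muscle spots, which lie directly under the bulbs, Msx1 was at 30.8 ± 3.8 CPM. Its levels in the inner root sheath and shaft were no higher than in those spots. Muscle spots were not free of follicle RNA, and held 25737 CPM summed over 8 of 8 inner root sheath markers, against 20509 in the matrix. Adipocyte spots held 35352 and fibroblast spots 18692. Hair proteins took 3.64% of the UMIs of muscle spots, against 2.43% in the matrix. Levels in these spots are thus no background without follicle RNA.

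Cux1 stood at 423, 437, 469 and 467 CPM in the matrix, at 297, 328, 336 and 301 in the inner root sheath, at 213, 235, 250 and 269 in the early shaft and at 141, 152, 132 and 150 in the late shaft. These ranges did not overlap, so Cux1 stepped down from region to region in every slice. The early shaft was 1.55-fold lower than the matrix (log2 -0.64 ± 0.092, adjusted p = 5.3e-07), and the late shaft was again 1.55-fold lower than the early shaft (log2 -0.64 ± 0.096, adjusted p = 4.5e-06). Between inner root sheath and early shaft the log2 difference was 0.29 ± 0.094 with an adjusted p of 0.062, and with slice as a replicate block it passed (0.29, adjusted p = 0.00452), as it did between strips (0.34, adjusted p = 0.0276) and, with a larger fold, in spots of a single list (0.50, adjusted p = 0.000947). The epidermis was 3.54-fold lower than the matrix. Muscle spots held 258 ± 21 CPM of Cux1. The levels of the early and late shaft were within or below the range of those spots, which also carried follicle RNA.

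Msx2, Dlx3 and Gata3 had similar levels in the matrix, inner root sheath and early shaft. Msx2 stood at 127, 117, 145 and 130 CPM in the matrix and at 107, 105, 137 and 129 in the early shaft. These ranges overlapped, and the difference did not pass the test (log2 0.14 ± 0.12, adjusted p = 0.34). In the late shaft Msx2 was at 49.7, 40.7, 33.2 and 42.8 CPM, below all early shaft values and 2.62-fold lower (log2 -1.39 ± 0.14, adjusted p = 3.6e-09). The epidermis was 4.95-fold lower than the matrix (adjusted p = 7.0e-14). Among all groups of spots the highest level of Msx2 was in the melanocyte-marked spots, with 134, 144, 174 and 200 CPM, in every slice above its other levels there.

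Dlx3 stood at 218, 249, 331 and 320 CPM in the matrix, at 203, 270, 376 and 341 in the inner root sheath and at 188, 275, 399 and 384 in the early shaft. The regions overlapped and the slices differed more than the regions did, since slices 3 and 4 were above slices 1 and 2 in 12 of 12 groups of spots. Early shaft against matrix passed narrowly (log2 0.40 ± 0.16, adjusted p = 0.033). The call was lost without slice 2 (0.0949), slice 3 (0.121) or slice 4 (0.104), and with library size alone as the scale (log2 0.15, adjusted p = 0.51). It was also lost with DESeq2 (0.0532), in thinned spots (0.214), in spots of a single list (0.214), in graph clusters (0.0721) and in the top 15% of spots (0.071). Adjusted p over the 16 alternatives ran from 9.4e-06 to 0.51. Inner root sheath against matrix did not pass (log2 0.25 ± 0.16, adjusted p = 0.20), but passed with slice as a replicate block (0.24, adjusted p = 0.00498) and between strips (0.26, adjusted p = 0.0363). In the late shaft Dlx3 was at 130, 150, 207 and 217 CPM, 1.64-fold lower than in the early shaft (log2 -0.71 ± 0.17, adjusted p = 0.0013), with overlapping slices. Dlx3 was the one factor for which no region had all 4 slices above the highest slice of muscle and fibroblast spots, 240 CPM. Slice by slice, however, the matrix, inner root sheath and early shaft were each above muscle, which held 148, 167, 240 and 225 CPM. For Gata3 only the epidermis lay above its own such mark, 235 CPM.

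Gata3 had its highest level in the epidermis, with 284, 257, 330 and 450 CPM, against 154, 126, 178 and 193 in the matrix. In each slice the epidermis was above every other group of spots, and it was 2.08-fold higher than the matrix (log2 1.06 ± 0.15, adjusted p = 3.3e-07). T cells also use Gata3, and the summed level of 7 of 7 T cell markers was 105 CPM (94.8 to 113) in the epidermis against 11.0 (8.57 to 13.99) in the matrix. The part of these cells in the level of Gata3 was not tested. Within the follicle Gata3 was at 168, 149, 220 and 236 CPM in the inner root sheath and at 142, 138, 190 and 259 in the early shaft. These values overlapped and the difference did not pass the test (log2 0.0027 ± 0.16, adjusted p = 0.997). Both were called higher than the matrix (log2 0.41 ± 0.15, adjusted p = 0.026, and 0.40 ± 0.15, adjusted p = 0.023). The first call was lost without slice 3 (0.117) and the second without slice 3 (0.0877) or 4 (0.0537). Both were lost with library size alone as the scale (0.269 and 0.477), in thinned spots (0.184 and 0.15) and in spots of a single list (0.0745 and 0.385). The second was also lost in the top 15% of spots (0.0581). The late shaft, at 98.4, 82.5, 103 and 140 CPM, was 1.58-fold lower than the early shaft (log2 -0.66 ± 0.16, adjusted p = 0.0018). Muscle spots held 142, 103, 152 and 188 CPM of Gata3 and fibroblast spots 116, 86.7, 149 and 235. The follicle levels of Gata3 were thus near those of muscle and fibroblast spots, which also carried follicle RNA.

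Among the 5 tested regions, Foxn1, Hoxc13 and Ovol1 were highest in the early shaft, as were Foxq1 and Prdm1 below. Foxn1 stood at 65.4, 61.5, 74.3 and 70.5 CPM in the matrix, at 189, 170, 162 and 131 in the inner root sheath, at 285, 267, 265 and 257 in the early shaft and at 93.6, 78.6, 65.2 and 80.2 in the late shaft. The early shaft was above every other region in all slices without overlap. It was 4.77-fold higher than the matrix (log2 2.26 ± 0.14, adjusted p = 7.0e-15), 3.13-fold higher than the late shaft (log2 of late over early -1.65 ± 0.14, adjusted p = 1.2e-10) and 1.76-fold higher than the inner root sheath (log2 of inner root sheath over early shaft -0.81 ± 0.14, adjusted p = 0.00012). The matrix level was at that of muscle spots (67.0, 62.0, 65.7 and 62.1 CPM). Those spots also carried follicle RNA, so this likeness does not show whether dividing matrix cells express Foxn1.

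Hoxc13 was broad. It stood at 163, 167, 185 and 203 CPM in the matrix, at 233, 262, 301 and 334 in the early shaft and at 183, 210, 204 and 258 in the late shaft. Early shaft and matrix did not overlap and differed 1.88-fold (log2 0.91 ± 0.098, adjusted p = 2.1e-09). The fall to the late shaft was small (log2 -0.30 ± 0.099, adjusted p = 0.023), its slices overlapped, and the call was lost without slice 2 (0.0773), 3 (0.227) or 4 (0.0548) and between strips (0.127). The inner root sheath was lower than the early shaft (log2 -0.38 ± 0.10, adjusted p = 0.016), a call lost without slice 2 (0.0633), 3 (0.218) or 4 (0.109) and between strips (0.115). Adipocyte spots held 183 to 237 CPM of Hoxc13, within the range of the follicle regions. The epidermis was 2.08-fold lower than the matrix (log2 -1.05 ± 0.11, adjusted p = 6.2e-10). The highest level of Hoxc13 was in the melanocyte-marked spots, with 339, 360, 380 and 408 CPM, above all values of every region. Krt35 was highest in the same spots, at 1443, 1629, 1452 and 1580 CPM against 467, 418, 482 and 495 in the matrix. These spots also held 36149 CPM summed over 8 of 8 inner root sheath markers (33780 to 38419), between the 20509 of the matrix and the 84405 of the inner root sheath. That sum was near those of adipocyte spots (35352) and of unassigned spots (34998). Dermal papilla markers were at 64.0 CPM (47.6 to 81.4) in the melanocyte-marked spots.

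Ovol1 stood at 80.0, 83.4, 96.3 and 100.1 CPM in the matrix, at 188, 187, 205 and 190 in the inner root sheath, at 249, 261, 293 and 284 in the early shaft and at 120.3, 128, 135 and 125 in the late shaft. It rose and fell as Foxn1 did, with no overlap between neighbouring regions. The early shaft was 3.62-fold higher than the matrix (log2 1.86 ± 0.092, adjusted p = 4.1e-17) and the late shaft 1.98-fold lower than the early shaft (log2 -0.98 ± 0.092, adjusted p = 5.9e-10). The epidermis was slightly higher than the matrix (log2 0.27 ± 0.098, adjusted p = 0.018), with overlapping slices, and this call was lost without slice 1 (0.0613) or 2 (0.0562).

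Foxq1 and Prdm1 were higher in the early shaft than in the matrix. As for Ovol1, all late shaft levels of each gene lay above all its matrix levels. Foxq1 stood at 37.7, 40.04, 60.1 and 77.1 CPM in the matrix, at 133, 156, 179 and 199 in the early shaft and at 112, 124, 138 and 133 in the late shaft. It was 3.75-fold higher in the early shaft than in the matrix (log2 1.91 ± 0.15, adjusted p = 3.7e-12) and 2.11-fold higher than in the inner root sheath (log2 of inner root sheath over early shaft -1.07 ± 0.16, adjusted p = 2.3e-05). Late against early shaft overlapped and did not pass (log2 -0.28 ± 0.15, adjusted p = 0.17), but passed with slice as a replicate block (-0.28, adjusted p = 0.0288) and, with a larger fall, in spots of a single list (-0.67, adjusted p = 0.00301). Foxq1 was also high in the melanocyte-marked spots, at 122, 122, 161 and 185 CPM.

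Prdm1 had the widest change of the set from matrix to shaft. It stood at 12.9, 9.73, 15.2 and 19.5 CPM in the matrix, at or below the level of muscle spots (17.8 to 29.0), at 70.0, 85.1, 79.7 and 85.5 in the early shaft and at 54.9, 56.1, 56.2 and 54.9 in the late shaft. No early shaft value overlapped either group, and the early shaft was 6.82-fold higher than the matrix (log2 2.77 ± 0.15, adjusted p = 2.1e-16). The fall to the late shaft passed (log2 -0.42 ± 0.13, adjusted p = 0.015), but not without slice 3 (0.0857) or 4 (0.065), nor in the thinned spots (log2 -0.094, adjusted p = 0.777), in graph clusters (-0.17, 0.342), in spots of a single list (-0.28, 0.216) or in the top 5% of spots (-0.31, 0.129). The inner root sheath was 4.38-fold higher than the matrix and 1.56-fold lower than the early shaft (adjusted p = 1.5e-12 and 0.0025), and the latter was lost in the thinned spots (log2 -0.21, adjusted p = 0.751). Outside the follicle column Prdm1 was 2.88-fold higher in the epidermis than in the matrix (adjusted p = 5.3e-09).

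**Figure D3:**
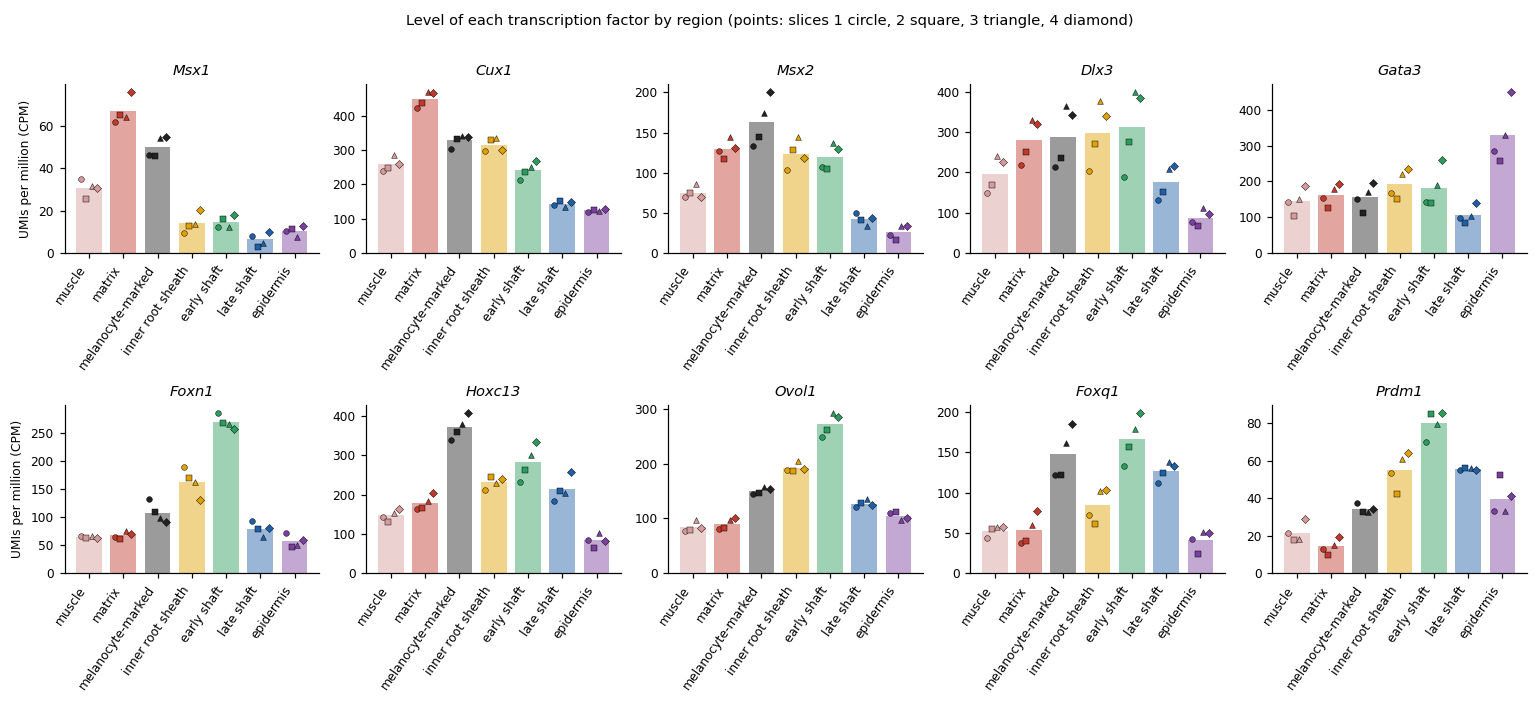
CPM of each transcription factor by region, with bars for the mean of 4 slices and a point for each slice; panels follow the order from matrix to shaft. Msx1 and Cux1 are highest in the matrix, Foxn1, Ovol1 and Prdm1 in the early shaft, Hoxc13 and Msx2 in the melanocyte-marked spots and Gata3 in the epidermis.

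To order the factors on a finer scale, the 1513 matrix, early shaft and late shaft spots were ranked in each slice by late shaft score minus matrix score and divided into 6 bins of 57 to 70 spots. A gene's position is the mean of the bins weighted by its CPM, in percent of the axis, where a gene with the same level throughout is at 50. Msx1 was first at 25.4 ± 1.7 (SD, n = 4 slices), followed by Cux1 at 37.1 ± 0.60 and Msx2 at 38.9 ± 1.5. Dlx3 at 45.1 ± 0.67 and Gata3 at 45.5 ± 0.97 came next. Foxn1 at 51.2 ± 1.3, Hoxc13 at 51.2 ± 0.89 and Ovol1 at 52.9 ± 0.59 lay at the middle, and Foxq1 at 58.8 ± 1.9 and Prdm1 at 61.2 ± 1.7 were last.

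Of the 9 pairs of neighbours in this order, 7 kept their direction in 4 of 4 slices, which gives an exact sign-flip p of 0.125 (two-sided, adjusted 0.161), the smallest that 4 slices allow. The closest of these 7 were Hoxc13 and Ovol1 (1.71 ± 1.2 percent of the axis) and Cux1 and Msx2 (1.86 ± 0.92), and the widest step was from Msx1 to Cux1 (11.7 ± 1.8). Dlx3 and Gata3 did not separate (0.41 ± 0.54, 3 of 4 slices, exact p = 0.25), nor did Foxn1 and Hoxc13 (0.033 ± 1.1, 3 of 4 slices, exact p = 0.875). The last 2 shared a position but not a profile. Foxn1 rose from 78.2 CPM in bin 2 to 267 in bin 3 and was at 80.9 in bin 6, whereas Hoxc13 went from 199 to 312 and kept 204. The mean level was highest in bin 1 for Msx1 and Cux1, in bin 4 for Prdm1 (73.2 CPM) and in bin 3 for the other 7. All slices shared a peak bin only for Msx1, Foxn1 and Hoxc13. Gata3 peaked in bins 1, 2, 4 and 3 of slices 1 to 4, and Prdm1 in bins 6, 4, 4 and 3.

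The factors were set among 12 hair keratins with at least 1000 UMIs. A position near 50 also comes from an even level, and Krt31, Krt32, Krt33a, Krt36, Krt83 and Krt87 shared with 7 factors their highest mean in bin 3, so a difference in mean position is not one of peaks. Krt35, known as one of the first keratins of the hair cortex, was the earliest keratin, at 38.6 ± 1.4. Msx1 was before Krt35 in 4 of 4 slices (13.2 ± 2.4 percent of the axis earlier, where the difference Msx1 minus Krt35 was -13.2), and Cux1 in 3 of 4 (difference -1.53 ± 1.3). Msx2 could not be told from Krt35 (difference 0.33 ± 1.6, later in 3 of 4 slices, exact p = 0.625). The other 7 factors were later than Krt35 in every slice, by 6.49 ± 2.1 (Dlx3) to 22.6 ± 0.45 (Prdm1).

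By mean position the next keratins were Krt32 at 50.8 ± 1.0 and Krt36 at 50.9 ± 2.6, between Gata3 and Foxn1. Then came Krt31 at 52.0 ± 0.75 and Krt87 at 52.8 ± 0.61, between Hoxc13 and Ovol1. Krt83 at 56.5, Krt33a at 57.1, Krt33b at 58.2 and Krt81 at 61.0 ± 1.3 lay between Ovol1 and Prdm1. These places were not tested, and not all held in every slice. The order was reversed for Krt36 and Foxn1 in slices 1 and 3, for Krt87 and Ovol1 in slice 2, and for Krt81 and Prdm1 in slice 4. Krt34 at 67.9, Krt86 at 68.6 and Krt84 at 77.4 came after all 10 factors. The median keratin stood at 56.8 ± 1.3, with 8 factors before it and Foxq1 (2.00 ± 0.68 later) and Prdm1 (4.48 ± 0.39 later) after it, each in 4 of 4 slices. Several of these keratins are close copies of each other (Krt33a and Krt33b, Krt81, Krt83, Krt86 and Krt87), and reads they share may have been lost or moved between them. Krt85 was not analysed here.

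**Figure D4:**
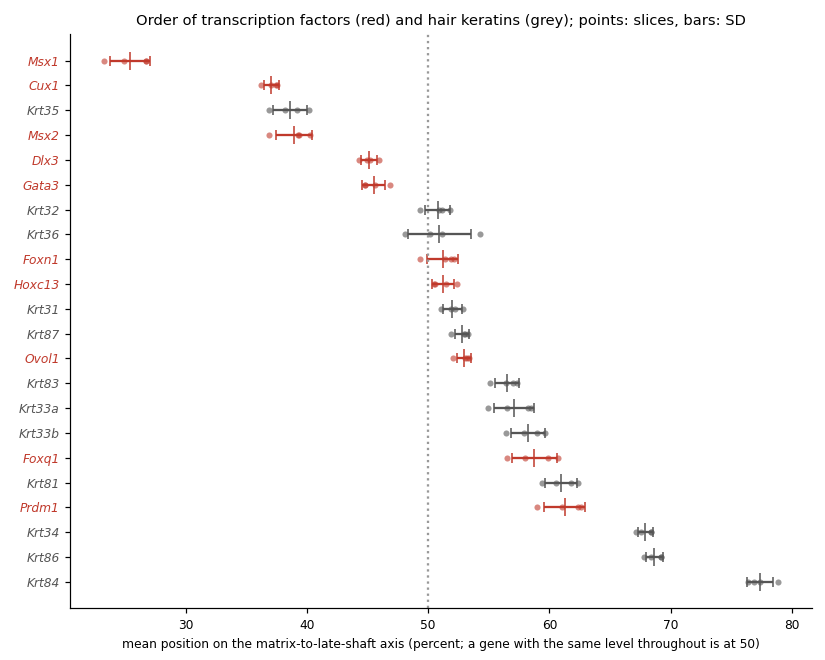
Mean position of the 10 transcription factors (red) and 12 hair keratins (grey) on the axis from matrix to late shaft, in percent of the axis; points are slices, bars the SD, and the dotted line marks a gene with an even level. Msx1 (25.4) precedes Krt35 (38.6) in 4 of 4 slices and Cux1 (37.1) in 3 of 4, while Krt34, Krt86 and Krt84 (67.9 to 77.4) follow Prdm1 (61.2).

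As a description over 24 points (6 bins in 4 slices, which share libraries and depth), log2(CPM + 1) of each factor was correlated with each of the 12 keratins. Msx1, Cux1, Msx2, Dlx3 and Gata3 had their highest r with Krt35 (0.79, 0.87, 0.93, 0.60 and 0.60) and their lowest with Krt84, down to -0.97 for Cux1. Foxn1 was closest to Krt32 (r = 0.96), Hoxc13 to Krt32 (0.76) and Ovol1 to Krt87 (0.97). Foxq1 and Prdm1 were closest to Krt81 (0.88 and 0.95). The 5 factors later than the middle of the axis had their lowest r with Krt35, from 0.16 for Foxn1 to -0.50 for Prdm1.

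Of the 14 hair keratins tested, 13 were higher in the early shaft than in the matrix and none lower (median log2 fold change 3.75), Krt35 being the exception (log2 -0.063 ± 0.16, adjusted p = 0.75). From early to late shaft 10 were lower and 2 higher. Those higher were Krt84 (log2 1.81 ± 0.18, adjusted p = 1.8e-09) and Krt39 (log2 1.00 ± 0.37, adjusted p = 0.041, on only 54 UMIs). Krt31, for example, was at 220, 209, 128 and 90.8 CPM in the matrix and at 1945, 2073, 1415 and 817 in the early shaft. Its level differed between slices, being lowest in slice 4 in 12 of 12 groups of spots, and Krt33a, Krt33b, Krt34, Krt83 and Krt86 were highest in slice 1 in 12 of 12. Foxn1 was highest in slice 1 in 10 of 12 and Gata3 in slice 4 in 12 of 12. What made the slices differ was not tested. Hair keratin RNA was also found beyond the shaft regions. Against the matrix, 12 of the 14 keratins were higher in the inner root sheath and none lower, and 8 were higher in the epidermis and 1 lower. Krt34, for example, was at 732 CPM in the epidermis and 327 in the matrix. How this RNA came to the epidermis spots was not tested.

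The distance from the epidermis uses no marker of the follicle, and all spots were counted at each distance. Mean level was highest at 7 spot spacings for Msx1 (48.4 CPM), at 6 for Cux1 (365) and Msx2 (125), at 5 for Dlx3 (289), Foxn1 (147) and Ovol1 (167), and at 4 for Foxq1 (115, in all slices) and Prdm1 (47.9). For Prdm1 the slices did not share a peak, which lay at 5, 0, 4 and 3 spacings. Gata3 was highest at 0, in the epidermis, and fell to 118 CPM at 2 spacings. Hoxc13 formed a plateau, and its highest slice values lay anywhere from 3 to 6 spacings. Krt35 was highest at 6 spacings (748 CPM), Krt31 and Krt32 at 5 and Krt34, Krt81, Krt84 and Krt86 at 4. The same 1513 spots were also ranked by this distance, a ranking chosen after seeing the data. All 9 neighbouring pairs of factors kept the order of the means, from Msx1 at 34.5 ± 1.7 to Prdm1 at 57.6 ± 2.5. Some keratins changed places with factors. Foxn1 (48.5) came before Krt36 (48.6) and Krt32 (48.7), and Krt31 (49.3) and Krt87 (50.7) came before Hoxc13 (51.4).

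**Figure D5:**
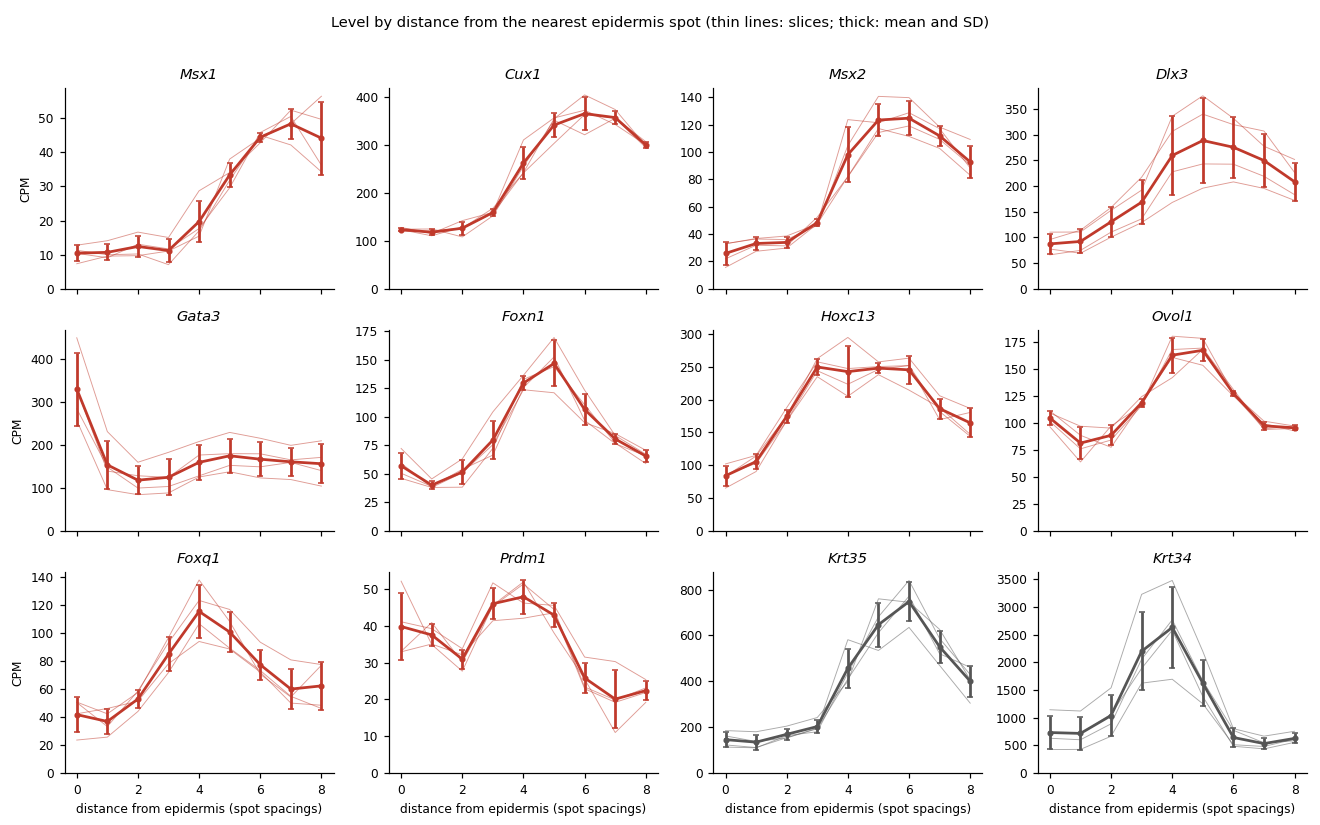
CPM (y axis, from 0) against distance from the nearest epidermis spot in spot spacings (x axis) for the 10 transcription factors (red) and for Krt35 and Krt34 (grey); thin lines are slices, thick lines the mean with SD. The highest mean moves from 7 spacings for Msx1 to 4 for Foxq1 and Prdm1, and Gata3 is highest at 0.

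The genes most like each factor were found by Pearson correlation of log2(CPM + 1) over 40 sums (10 regions in 4 slices that share libraries), among 10592 genes. Msx1 was most like Rcc2 (r = 0.92), Ncl (0.92) and Npm1 (0.92), the latter 2 being nucleolar proteins. Cux1 was most like Slc30a1 (0.98) and Slc39a10 (0.96), both zinc transporters, and Scd2 (0.94). Msx2 was most like Scd2 (0.94), Eef1g (0.93) and Metap2 (0.93), and Dlx3 was most like Msx2 (0.90), Foxe1 (0.90) and Cfl1 (0.90). Gata3 had no close match, with Slco3a1 (0.81), Csnk2b (0.80) and F3 (0.80).

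Foxn1 was most like Tubb6 (0.95), Gcat (0.94) and Fam83c (0.93), and Ovol1 was most like Lypla2 (0.94), Fam83c (0.94) and Foxn1 itself (0.93). Hoxc13 was most like Gjb2 (0.94), the gap junction protein connexin 26, then Slc3a2 (0.89) and Btg3 (0.88). Foxq1 was most like Syt7 (0.93), Pbld1 (0.91) and Slc25a37 (0.89), and Prdm1 was most like Dedd2 (0.93), Tgfa (0.93) and Zfand6 (0.92).

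Among 39 other transcription factors of hair follicle and epidermis that passed the filter, 13 were higher and 12 lower in the early shaft than in the matrix, with a median log2 fold change of -0.061. The largest rises were those of Sox9 (log2 2.54 ± 0.16, adjusted p = 1.6e-14), Foxc1 (2.14 ± 0.13, adjusted p = 3.2e-15) and Barx2 (2.05 ± 0.19, adjusted p = 4.3e-11). The largest falls were those of Dlx1 (-2.14 ± 0.28, adjusted p = 6.7e-08), Dlx4 (-1.68 ± 0.23, adjusted p = 2.3e-07) and Ovol2 (-1.67 ± 0.49, adjusted p = 0.0044). Ovol2 had only 98 UMIs over all matrix, early and late shaft spots, so its folds here and below rest on few counts.

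From early to late shaft 9 of the 39 were higher and 12 lower, and of the 10 factors of the set none was higher. Barx2 (log2 1.76 ± 0.14, adjusted p = 3.3e-11), Sox9 (1.31 ± 0.14, adjusted p = 1.5e-08) and Tcf7l2 (1.17 ± 0.17, adjusted p = 2.5e-06) rose most, and Lef1 (-1.37 ± 0.20, adjusted p = 2.0e-06), Id3 (-1.09 ± 0.13, adjusted p = 7.8e-08) and Grhl1 (-1.07 ± 0.094, adjusted p = 1.4e-10) fell most. Sox9 and Tcf7l2 are also genes of the outer root sheath, which surrounds the shaft at this height. Its summed markers were higher in the later regions (given above), and their part in these changes was not tested. In the inner root sheath 15 were higher and 12 lower than in the matrix, led by Foxc1 (2.44 ± 0.13), Sox9 (2.29 ± 0.17) and Barx2 (1.89 ± 0.20) and by Dlx4 (-2.002 ± 0.26), Ovol2 (-1.80 ± 0.54) and Dlx1 (-1.71 ± 0.27).

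Against the early shaft, 3 of the 39 were higher in the inner root sheath and none lower, among them Heyl (0.70 ± 0.17, adjusted p = 0.0088) and Zfp750 (0.34 ± 0.10, adjusted p = 0.037), where 5 of the 10 factors of the set were lower and none higher. In the epidermis 15 were higher and 12 lower than in the matrix. The highest there were Gata6 (5.22 ± 0.48), Nfatc1 (4.23 ± 0.27) and Bcl11b (3.61 ± 0.18), and the lowest Dlx1 (-3.21 ± 0.34), Dlx2 (-2.98 ± 0.18) and Dlx4 (-2.89 ± 0.29), the same family as Dlx3 (-1.64 ± 0.18). The folds of Gata6 and Nfatc1 rest on matrix levels near 0, with 10 and 73 UMIs over all matrix, early and late shaft spots. T cell markers were also higher in the epidermis than in the matrix (given above), and their part in these folds was not tested.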

How the data were processed

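The authors processed the Visium libraries with Space Ranger 2.0.1 against mouse build mm10, per the submitters' processing notes, and the values analysed here are the deposited raw UMI counts per gene and spot. Spots with fewer than 250 genes were removed, which left 6411 of 6420. Each of 10 marker lists was scored as the mean z-score of its log-normalized genes within a slice, and a spot joined the list of its highest score if it was in the top 10% of its slice; 1496 spots joined none and were not melanocyte-marked either. Slides share spot positions, so 750 barcodes occurred in all 4 slices and mark the same position, not the same cells.

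The sums of counts over the spots of a region in a slice were fitted with edgeR 4.0.16 (R 4.3.3) after TMM scaling and removal of low genes, and p-values were adjusted by the Benjamini-Hochberg method with a threshold of 0.05. The test was checked on simulated data. Alternatives were DESeq2 1.42.0, other scalings, other spot thresholds, spots thinned to 5500 UMIs, graph clusters (Seurat 5.3.0), the 3 skin strips by position summed over slices in place of the slices, single slices left out and slice as a replicate block. The regions of a slice share its sections, so slice numbers pair the sums, whose deviations from region means correlated with a mean r of 0.072 to 0.22 within slices, against -0.13 to -0.081 between slices. Positions on the matrix-to-shaft axis were compared with exact two-sided sign-flip tests over 4 slices.

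The named genes were the 10 members, the hair keratins, the 3 other transcription factors with the largest fold in each direction among those called, and the 3 genes most like each member. One gene that this rule names is not reported here. The members and lists were chosen with earlier results of these data known. Krt85, planned as a reference beside Krt35, was not analysed here, and the median of 12 keratins was used in its place. With 4 slices of 19393026 to 26910422 UMIs, intervals cover the spread between slices of the same 3 mice only.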

Additional observations from a re-analysis of the deposited data

Results flagged for a closer look

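Of 60 groups of 4 slices examined (the level of each of the 10 transcription factors in 5 regions, and its position on the axis), 1 held a slice far from the others. Ovol1 in the inner root sheath was at 205.4 CPM in slice 3, and the other 3 slices lay between 187.4 and 190.3 CPM. Chance alone gives such a gap in about 1 of 20 groups.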

How the results depend on the processing

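Calls were recomputed under 16 alternatives. Of the members called from early to late shaft, 9 in all, 5 were called with spots thinned to 5500 UMIs; every other count of members called stayed within 1.5 times its value, as did the order and the count before the median keratin. Leaving out single slices gave 7 to 9 members called in the early shaft against matrix, 7 to 9 in late against early shaft, 7 to 8 in the inner root sheath against matrix, 4 to 5 in the inner root sheath against early shaft and 7 to 8 in the epidermis. With slice as a replicate block the counts were 9, 10, 9, 6 and 8, and no call changed other than the 3 given above.

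The log2 fold changes that changed sign were small and not called under either setting. With library size alone Msx2 was at -0.12 in the early shaft and -0.073 in the inner root sheath against matrix, and at 0.048 in the inner root sheath against early shaft; with spots in 1 list only it was at -0.13 in the inner root sheath against matrix. Against the early shaft, the inner root sheath was at 0.17 for Msx1 with thinned spots and, for Gata3, at -4.2e-05 with DESeq2 and -0.046 with the top 5% of spots. Without single slices the same comparison ran from -0.098 to 0.010 for Msx2 and from -0.018 to 0.087 for Gata3. Foxq1 in the epidermis against matrix was at 0.085 with the top 5% of spots. The cause was not tested. The share of higher calls among all genes moved with library size alone from 49.7% to 33.7% in the early shaft against matrix, from 50.4% to 38.2% in the inner root sheath against matrix, from 14.5% to 33.7% in the inner root sheath against early shaft and from 49% to 34.7% in late against early shaft.

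Of 140 positions on the axis under alternatives, 24 moved by more than the spread between slices. With melanocyte-marked spots added to the axis, chosen after seeing the data, Foxn1 (52.95) came after Hoxc13 (50.27). In that setting 8 of 9 neighbouring pairs kept their order, and 9 members preceded the median keratin. Krt32 (54.1) and Krt31 (54.7) then came after Ovol1 (53.9). No graph cluster was led by inner root sheath markers, so that setting gave no value for the inner root sheath. Depth limited Msx1 most, with 46 UMIs in the late shaft.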
